A study of Mus musculus with 12 samples.

Results

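Of 222625 chromatin regions that were open in at least 1 library, 5684 (2.55%) were open in every one of the 12 libraries and lay more than 10 kb from both ends of every protein-coding gene. They were found by joining overlapping peaks on chromosomes 1 to 19, keeping the regions that a peak overlapped in each library, and keeping those beyond 10 kb from the spans of the RefSeq annotation (mouse build mm10, GRCm38.p6). Such regions are called shared distal regions here, whether they lay inside a gene or between genes. Another 8982 regions open in all libraries lay within 1 kb of a gene end, and they served as the measure of comparison. The regions were chosen by the presence of a peak in all libraries, so presence is no result, and their covered width was used by the rule only in being above 0.

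ATAC-seq marks open chromatin by where a transposase can insert. The cells were mTEChi, the medullary thymic epithelial cells of high MHC class II, sorted from thymi of C57BL/6 mice 4 to 7 weeks old. The 6 groups held 2 libraries each. One was Aire -/-, which lacks Aire, one Aire +/C313Y and one Aire +/C442G, both heterozygous for a cysteine change in Aire, and each was set beside a pair of Aire +/+ libraries. All wild types have 1 genotype label, and which pair belongs to which mutant was taken from how the titles are written, so the pairing is assumed. The C313Y heterozygotes are numbered 2 and 3. No label names separate animals, so the spread between the 2 libraries of a group may be technical.

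Aire is the nuclear protein that lets medullary epithelial cells express genes of other tissues, through which developing T cells that react to self are removed or diverted. It acts on chromatin that is already in a poised or open state and at large enhancer-rich loci. Distal open regions are in general enhancers, insulators bound by CTCF, starts of non-coding or internal transcripts, or repeats, and a peak list alone does not tell these apart. The NF-kB pathway downstream of RANK (Tnfrsf11a) matures these cells, and p63 (Trp63) and the grainyhead factors maintain epithelial identity.

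The lists differed in length, from 33502 and 33933 peaks in the wild types of the knockout to 112808 and 120031 in the C442G heterozygotes. The shared distal regions made up 39.3% of the distal regions of the shortest list and 7.88% of the distal regions of the longest. The 2 short lists decided much of the selection, because 1804 and 1480 of the 4196 distal regions missing in exactly 1 library were missing in wild type 1 or 2 of the knockout. Without both of these libraries the rule would have kept 11007 regions. The files hold no read counts, so depth is unknown. Marker genes were set beside the label. A peak lay within 1 kb of an end of Aire, Cd74, Cd40, H2-Aa, H2-Ab1 and Spib in all 12 libraries, while Cd80 had one in 1 library and Ciita in none. In the whole list of mTEC identity and antigen presentation, 8 of 17 genes had one in all 12. Among markers of other cells, Ptprc, Cd8a, Lck, Rag1, Ms4a1, Pecam1 and Cdh5 had no such peak in any library, although Tcf7, Flt3 and Erg had one in all 12. Of the 14 genes of the T cell list 1 had a gene-end peak in every library, as did 2 of 10 for dendritic cells, macrophages and B cells, 0 of 9 for fibroblasts and 1 of 8 for endothelium. In these 4 lists, in the same order, 5, 2, 1 and 3 genes had no such peak in any library. Most genes of each list thus had one in at least 1 library. The part of other cells in the results below was not tested.

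**Figure D1:**
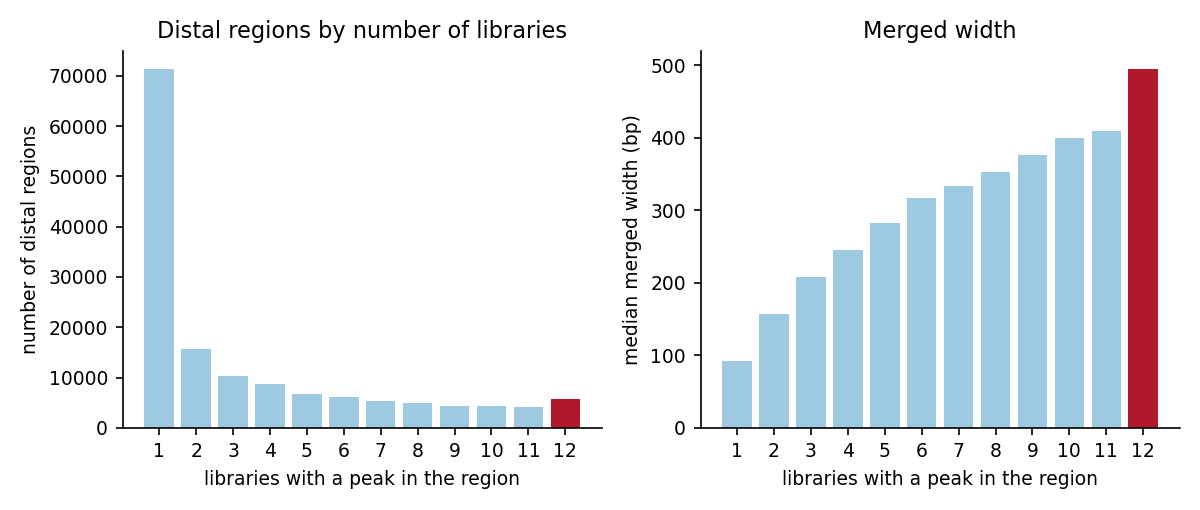
Left, number of distal regions (y axis) by the number of libraries with a peak in the region (x axis). Right, their median merged width in bp. The count fell from 71399 regions in exactly 1 library to 4196 in 11 and stood at 5684 in all 12 (red), and the median width went from 92 bp in 1 library to 495 bp in all 12.

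The number of distal regions declined with the number of libraries up to 11 and was higher again at 12. There were 71399 in exactly 1 library, 6059 in 6, 4196 in 11 and 5684 in all 12, out of 147597. The plot of distal regions by number of libraries shows this order. A merged region spans the union of its peaks, so its width tends to grow with the number of libraries, and it was a median of 495 bp for the shared distal regions (quartiles 329 and 713 bp, highest 5781 bp). Together they covered 3.14 Mb.

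Some of these regions were starts of transcripts within long genes or of non-coding genes. RefSeq start windows, which run from 250 bases before to 50 bases after an annotated start, could be set beside 5460 of the regions, those on the chromosomes the table covers. Of these, 476 (8.72%) overlapped a start window, against 1.34% of all distal regions, 0.493% of those in exactly 1 library and 3.33% of those in 11. A protein-coding gene owned the start at 274 regions, and only other genes did at 202.

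The sequences below are the 250 bases before 6 such starts, chosen after their values were seen because they show the kinds of start found: 2 non-coding RNAs of epithelial or general interest (Malat1 and Mir205hg) and internal starts of 4 long protein-coding genes. They come from RefSeq on GRCm38.p6, run 5' to 3' along the gene's strand, and capitals mark matches to any of 9 short motifs on either strand.
Malat1 (chr19:5802673-5802922, minus strand): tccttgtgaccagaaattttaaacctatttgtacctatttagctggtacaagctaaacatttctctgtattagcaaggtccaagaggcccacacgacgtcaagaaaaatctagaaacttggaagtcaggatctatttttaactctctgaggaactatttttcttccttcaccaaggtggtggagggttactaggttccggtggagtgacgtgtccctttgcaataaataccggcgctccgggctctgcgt
Mir205hg (chr1:193510211-193510460, minus strand): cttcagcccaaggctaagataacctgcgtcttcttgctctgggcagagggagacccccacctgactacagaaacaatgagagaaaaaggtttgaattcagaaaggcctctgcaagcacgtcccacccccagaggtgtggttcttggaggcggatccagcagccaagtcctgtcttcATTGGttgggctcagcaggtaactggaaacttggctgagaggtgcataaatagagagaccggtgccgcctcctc
Prdm1 (chr10:44458749-44458998, minus strand): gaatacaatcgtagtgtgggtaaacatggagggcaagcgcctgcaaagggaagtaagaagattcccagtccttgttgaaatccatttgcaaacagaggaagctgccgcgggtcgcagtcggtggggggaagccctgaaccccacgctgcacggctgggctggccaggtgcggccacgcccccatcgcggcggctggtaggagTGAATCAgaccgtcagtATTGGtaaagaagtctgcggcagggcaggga
Tjp1 (chr7:65371245-65371494, minus strand): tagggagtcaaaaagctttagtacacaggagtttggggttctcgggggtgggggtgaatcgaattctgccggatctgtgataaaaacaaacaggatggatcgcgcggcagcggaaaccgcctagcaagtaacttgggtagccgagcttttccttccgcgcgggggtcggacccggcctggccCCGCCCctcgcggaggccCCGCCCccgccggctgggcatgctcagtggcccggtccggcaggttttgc
Dst (chr1:34011345-34011594, plus strand): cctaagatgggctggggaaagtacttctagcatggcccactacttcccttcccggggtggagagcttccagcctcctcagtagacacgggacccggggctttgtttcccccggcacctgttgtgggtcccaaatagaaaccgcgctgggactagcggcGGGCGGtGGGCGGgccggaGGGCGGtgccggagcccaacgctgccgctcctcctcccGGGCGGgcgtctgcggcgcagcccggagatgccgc
Rbpj (chr5:53590096-53590345, plus strand): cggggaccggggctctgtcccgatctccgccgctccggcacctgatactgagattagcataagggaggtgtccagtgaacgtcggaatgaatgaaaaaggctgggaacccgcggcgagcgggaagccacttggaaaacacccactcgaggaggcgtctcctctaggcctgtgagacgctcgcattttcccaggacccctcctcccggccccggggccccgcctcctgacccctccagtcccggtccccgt

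Capitals in the Mir205hg stretch are 1 NFY match (CCAAT, here as its complement), and those in the Prdm1 stretch are 1 AP-1 match (TGANTCA) and 1 NFY match. In Tjp1 and Dst they are 2 and 4 matches to the SP/KLF motif (GGGCGG). The Malat1 and Rbpj stretches hold no match, which says only that these letters are not in these windows. GC content was 44% for Malat1, 54% for Mir205hg and 68.8% for Dst, with 8, 5 and 22 CpG dinucleotides.

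The region at the start of Mir205hg, chr1:193510013-193510363, lay between protein-coding genes, 140 kb from the nearest of their ends. Mir205hg is the host transcript of miR-205, a microRNA of stratified epithelia, whose mature arm is shown with the seed (bases 2 to 8) in capitals.
mmu-miR-205-5p: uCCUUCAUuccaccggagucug
The region covered 135 and 176 bp in the Aire -/- libraries and 87 and 123 bp in their wild types. It covered 246 and 205 bp in the C313Y heterozygotes against 340 and 252 bp, and 192 and 212 bp in the C442G heterozygotes against 199 and 310 bp. The C313Y heterozygotes were below their wild types, the C442G groups overlapped, and the knockout was above its wild types. Both knockout libraries were wider than both wild types at 64.1% of all shared distal regions, so that order was common. With each library centred on its median over the regions open in all libraries, the changes here were -0.03 (knockout), -0.59 (C313Y) and -0.35 (C442G, all log2).

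The Prdm1 region, chr10:44458528-44458878, lay inside the gene 21.4 kb from its nearer end. Prdm1 encodes Blimp1, a repressor of transcription in epithelia and lymphocytes. Its width was among the steadier ones, with 266 and 341 bp in the knockout, 287 and 289 bp in its wild types, and 263 to 341 bp in the other 8 libraries. The Tjp1 region, at an internal start of the gene for the tight-junction scaffold ZO-1, was wide at 1010 and 990 bp in the knockout and 824 and 461 bp in its wild types. In the C313Y pair it covered 1022 and 554 bp in the heterozygotes and 466 and 567 bp in the wild types, which overlap, and in the C442G pair 1027 and 1019 bp against 963 and 1003 bp. Rbpj encodes the DNA-binding partner of Notch, and its internal start covered 468 to 672 bp in all 12 libraries. Dst encodes a linker of hemidesmosomes to keratin, and its region covered 437 to 895 bp in 11 libraries but 74 bp in wild type 2 of the knockout. Other internal starts among the regions belonged to Runx1, Tank, Fbxw7, Lmna, Elf1 and Gnas. None of the regions named in these sentences passed the width test in any contrast.

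The motif shares describe letters, not binding. Over the 580 start windows that shared distal regions overlapped, 53.6% held GGGCGG, against 36.0% of the 31396 autosomal windows in the table. The NFY motif was in 34.3% against 37.3%, the AP-1 motif in 8.62% against 7.84%, and the ETS motif (CCGGAAGT) in 4.31% against 3.95%. The NF-kB motif was in 23 of the 580 windows (3.97%) against 1.45%, and the CTCF motif in 4 (0.690%) against 0.0987%. The POU motif (ATGCAAAT) was in 2.41% against 1.75%, the RUNX motif (TGTGGTTA) in 1.03% against 0.758%, and the p53 family motif in 0.862% against 0.688%. Base composition differed too, with a median GC content of 59% and 16 CpG in the overlapped windows against 53% and 7 CpG in all windows. The 9 motifs were searched on both strands and may overlap each other, and windows of 1 gene can share bases.

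Among all 5684 regions, those at starts included, lncRNA genes overlapped 958 (16.9%), pseudogenes 58, tRNA genes 32, snRNA genes 11 and microRNA genes 8. The 46 regions over small RNA genes and the 274 over protein-coding starts were the widest classes, with median merged widths of 821 and 719.5 bp, against 475 bp for the 4946 regions with no annotated start. Within libraries the order of these classes was the same in the knockout, where library 1 had medians of 479, 405 and 241 bp. In 3 wild types it was not: regions over small RNA genes and over protein-coding starts had medians of 255 and 271 bp in wild type 1 of the knockout, 271 and 276.5 bp in its wild type 2, and 468.5 and 489.5 bp in C442G wild type 1. The telomerase RNA gene Terc lay in a region of 714 bp at chr3:96414330-96415043 that varied from 75 bp in wild type 2 of the knockout to 714 bp in C442G wild type 2. The 4 copies of the U3 RNA gene, Rnu3b1 to Rnu3b4, each lay in a region inside Tex14. These copies are near-identical, so reads may be shared between them and their widths are uncertain.

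The 10 widest regions by mean log2 width were led by chr17:39843023-39848803, over the ribosomal RNA-like pseudogene Rn18s-rs5, which covered 4953 to 5781 bp in every library (mean 5449 bp ± 364, SD over 12 libraries). The second, chr14:19415723-19418899, lay 115 kb from Gm2244 and covered 1653 to 2846 bp. The others had means from 1141 to 1421 bp. They lay inside Impact, Sertad2 and Nr3c1 and near Ly6c2, Zfp958, Trim55, Slc1a3 and Tamm41. The Sertad2 region was at a start of that gene and varied from 633 bp in C313Y wild type 1 to 1555 bp in C442G heterozygote 1. The region near Trim55 (chr3:19627879-19629337) held 4 tRNA genes and covered 1087 to 1404 bp. Nr3c1 encodes the glucocorticoid receptor, and its region covered 1690 and 1458 bp in the knockout against 794 and 835 bp. It covered 769 and 813 bp in the C313Y heterozygotes against 467 and 924 bp, and 2502 and 1604 bp in the C442G heterozygotes against 1689 and 2362 bp. Only the knockout was apart from its wild types there, as it was at 64.1% of all shared distal regions, and its change did not pass the test.

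Inside genes lay 2791 regions (49.1%) and between genes 2893, close to the 50.6% inside for all distal regions. The median distance to the nearest gene end was 33.1 kb, against 34.9 kb for distal regions in 11 libraries and 49.6 kb for those in exactly 1. Within 20 kb of an end lay 29.3%, against 22.5% of all distal regions, and beyond 100 kb lay 16.9% against 27.2%. The farthest was 2138 kb from any end. At the limit of the rule, the 5 regions just inside were 10.005 to 10.015 kb from an end (at Ywhaz, Rhbdl2, Slc7a11, Ltbp4 and Zfp821), with mean widths of 172 to 564 bp. The 5 just outside were 9.984 to 9.998 kb away (at Borcs5, Vps45, Lnx2, Grap2 and Tiparp), with mean widths of 228 to 425 bp. By chromosome the regions made up 3.21% (chromosome 14) to 4.54% (chromosome 17) of the distal regions.

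**Figure D2:**
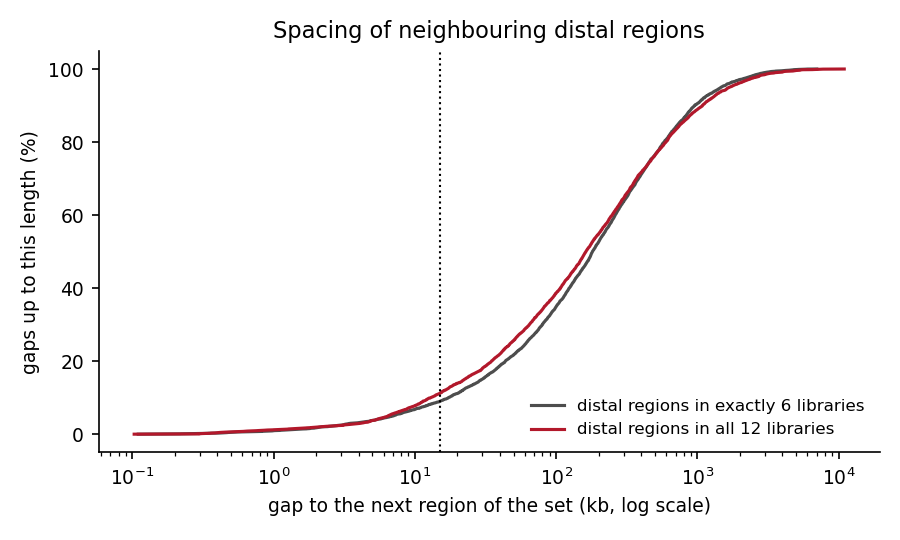
Cumulative share of gaps (y axis, percent) by the gap in kb between neighbouring regions on a chromosome (x axis, log scale), for the shared distal regions (red) and for distal regions in exactly 6 libraries (grey), with a dotted line at 15 kb. The curves are close, with medians of 162 and 181 kb, and the red curve is above the grey one at 15 kb.

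Most shared distal regions stood alone. Joined where the gap was at most 15 kb, they formed 4530 single regions, 434 pairs and 87 clusters of at least 3, and 20.3% of them were in a pair or cluster. The distal regions open in exactly 6 libraries were a set of nearly the same number (6059), and 17.0% of them were in a pair or cluster, with 46 clusters of at least 3. The median gap was 162 kb against 181 kb, as the plot of spacing shows. These counts move with the distance used, from 18 clusters of at least 3 at 5 kb to 309 at 50 kb.

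The largest cluster, of 6 regions over 31.9 kb (chr19:5786426-5818352), lay around Malat1, an abundant nuclear non-coding RNA, near Frmd8. Its summed width was 2369 and 2859 bp in the knockout, 1484 and 1481 bp in its wild types, 2018 and 2149 bp in the C313Y heterozygotes, 1558 and 2406 bp in theirs, 4543 and 3659 bp in the C442G heterozygotes and 3944 and 4186 bp in theirs. The heterozygotes overlapped their wild types and the knockout did not. Among single shared distal regions, both knockout libraries were wider than both wild types at 64.1%. Within it the region over the Malat1 body went from 152 bp in a wild type of the knockout to 2394 bp in a C442G heterozygote, whereas the one at its start covered 81 to 160 bp in all 12 libraries.

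Clusters of 5 lay 47.5 kb from Chd2 (chr7:73589197-73628451), which encodes a chromatin remodeller, inside Mbp (chr18:82492420-82526492), inside Irak2 (chr6:113661191-113681626), which encodes a kinase below Toll-like and IL-1 receptors, and 299 kb from Alkbh8 (chr9:3017931-3036583). The Irak2 cluster summed to 1752 and 1920 bp in the knockout and 1427 and 2043 bp in its wild types, and these overlap. The Chd2 cluster summed to 2108 and 2286 bp against 1645 and 1650 bp. The cluster far from Alkbh8 went the other way, with 1560 and 1365 bp in the knockout, 2358 and 2064 bp in its wild types and 1971 to 3155 bp elsewhere. Of the clusters of 4, those with the longest span lay in Myo3b, in Tex14 at the U3 genes, between Csnk1a1 and Il17b at the non-coding RNAs Carmn and Bvht, near Akap13, and in Slc24a3. The Myo3b cluster had 877 and 1054 bp in the wild types of the knockout and 2061 and 2097 bp in the knockout.

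The nearest protein-coding genes numbered 3562, of which 2326 had 1 region and 94 had at least 5. High counts were 10 at Gse1, 9 each at Ank3 and Arid1b, and 8 each at Mical3 and Pde4d. Gse1 and Arid1b encode parts of chromatin complexes (a corepressor and a SWI/SNF subunit), Ank3 a membrane adaptor, Mical3 an actin-binding oxidase and Pde4d a cAMP phosphodiesterase. These genes are long, and a long gene can hold more distal regions. Of all distal regions at Gse1 11.4% were open in every library, against 6.67% at Arid1b and 4.91% at Pde4d. Among genes with 7 regions, the first by symbol were Alkbh8, Arrdc4, Etl4 and Hivep3.

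Genes of the NF-kB pathway were the nearest gene of 21 regions, and 11 of the 24 genes on that list had at least 1. Of all distal regions at this list 7.92% were open in every library, where 3.85% of all distal regions were. The list had 32 and 12 regions with limits of 5 and 20 kb and 38 with any gene within 100 kb. Nfkbiz and Tnfaip3, which encode an atypical IkB protein and the inhibitor A20, had 4 regions each, Nfkb1 had 3, and Tnfrsf11a (RANK) and Tank had 2 each. The region inside Nfkbiz (chr16:55821644-55822665) covered 694 and 606 bp in the knockout and 516 and 641 bp in its wild types, which overlap, and 480 to 996 bp in the other libraries. A region 17.3 kb from Tnfrsf11a (chr1:105866769-105867213) was steady, at 379 and 411 bp in the knockout, 379 and 351 bp in its wild types and 356 to 437 bp elsewhere. The nearest region to Tnfaip3, 20.2 kb away, was small, at 155 and 315 bp in the knockout and 114 and 164 bp in its wild types. No region of this list passed the width test in any contrast, and its median centred width change was 0.09 in the knockout, 0.05 in C313Y and 0.03 in C442G (log2).

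The list of mTEC identity and antigen presentation had 2 regions for 17 genes, at Ciita and Il15, which was 2.47% of its distal regions. With limits of 5 and 20 kb from gene ends the list had 4 and 0 regions, and 14 when any of its genes within 100 kb counted. No distal region of any library had Aire as its nearest gene. The Ciita region lay 14.2 kb away (chr16:10465125-10465840), and Ciita encodes the switch for MHC class II genes. It covered 398 and 367 bp in the knockout, 147 and 186 bp in its wild types and 321 to 716 bp in the others. For the factors of the mimetic cells, which are thymic cells that take on other tissues' programmes, there were 4 regions (2.88% of their distal regions), at Foxa2, Hnf4a and Hnf4g.

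Epithelial transcription factors had 22 regions at 12 of 26 genes, a share of 3.69% of their distal regions, near that of all distal regions. Grhl2 led with 6, and Grhl1 and Klf6 had 3 each. The region 33.1 kb from Grhl2 (chr15:37197977-37199715) varied widely, with 324 and 968 bp in the knockout, 100 and 587 bp in its wild types and 412 to 1666 bp in the others. The single Trp63 region (chr16:25751871-25752348) lay inside the gene and covered 217 and 297 bp in the knockout against 224 and 127 bp. Epithelial adhesion and keratin genes had 18 regions at 8 of 26 genes, which was 8.65% of their distal regions. The count was 20 and 7 with limits of 5 and 20 kb and 35 with any gene within 100 kb. Dsp (desmoplakin), Epcam and Pkp1 (plakophilin 1) had 3 each, and Cldn4 and Krt18 were among those with 2. The Krt18 region 10.98 kb away (chr15:102016161-102017235) covered 568 and 523 bp in the knockout and 464 and 560 bp in its wild types, which overlap.

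AP-1 and related factors had 14 regions at 8 of 15 genes (6.45%), 4 of them at Bach2 and 2 each at Bach1, Fos and Jun. Interferon factors and targets had 9 at 5 of 15 (7.03%), with 3 at Irf8 and 2 each at Irf1 and Irf2. The list of Notch, EGF receptor, TGF-beta and Wnt signalling had 16 at 9 of 17 (4.26%), with 4 at Hes1, 3 at Egfr and 2 each at Jag1 and Tgfb2.

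Genes that mark other cells were also near shared distal regions. The endothelial list had 14 regions at 6 of 8 genes (7.45%), with 3 at Cdh5 and Flt1 and 2 at Erg and Pecam1. The T cell list had 13 at 5 of 14 (5.22%), with 4 at Ets1, 3 at Bcl11b and Tcf7 and 2 at Ptprc. Dendritic, macrophage and B cell genes had 3 (3.45%, at Zbtb46 and Pax5), and fibroblast and mural genes had 6 (5.66%, at Dcn, Fbn1 and Pdgfra). Another region lay over Trac, the constant gene of the T cell receptor alpha chain (chr14:54222212-54222955). It covered 444 and 655 bp in the knockout, 420 and 458 bp in its wild types and 257 to 709 bp in the rest. Ets1, Bcl11b and Erg can be expressed outside these lineages, and a nearest gene is not a target. Counts depend on the length of the lists: with all lists at 33502 peaks the 12 gene lists had 65 regions in place of 142. The lists of the C313Y contrast were cut to that length by peak width and the others by −log10 p.

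The mutants had wider peaks at these regions in each contrast, and at gene ends they did so in the knockout and C313Y. The median covered width (the bp of a region that a library's peaks cover) was 249 and 276 bp in the knockout and 152 and 164 bp in its wild types. It was 254 and 219 bp in the C313Y heterozygotes against 197 and 211 bp, and 346 and 341 bp in the C442G heterozygotes against 320 and 321 bp. Mutants and wild types did not overlap in any contrast, and the ratio of the means was 1.66, 1.16 and 1.07. At gene-end regions the ratios were 1.40, 1.13 and 1.01, and there the C442G libraries overlapped (536 and 509 bp in the heterozygotes, 512 and 520 bp in their wild types). The ratios of the peak numbers were 2.63, 1.03 and 1.26, so the knockout had the highest ratio in peak number as in width. In C313Y the peak numbers overlapped (74167 and 56173 in the heterozygotes, 71554 and 54613 in their wild types). The part of depth in the widths was not tested.

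**Figure D3:**
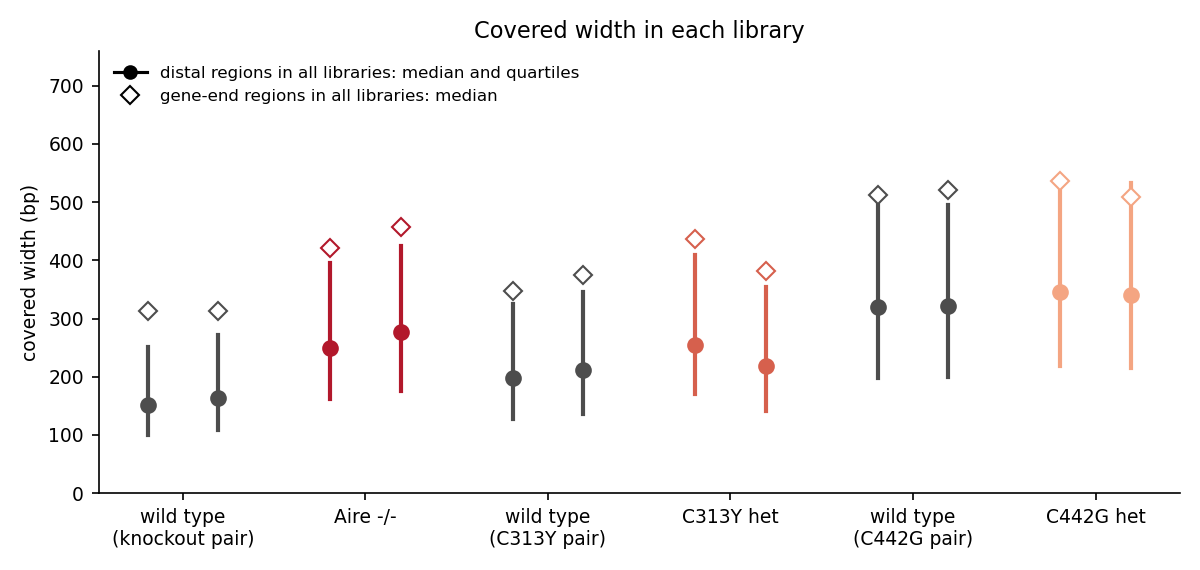
Covered width in bp (y axis) in the 12 libraries, 2 per group (x axis). Filled points are the medians of the 5684 shared distal regions, lines run from the first to the third quartile, and open diamonds are the medians of the 8982 gene-end regions. Wild types are grey, mutants are red or orange, and the lowest medians are the 152 and 164 bp in the wild types of the knockout.

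Distal peaks were narrower than gene-end peaks in every library, and the gap was smaller in the mutants. The median log2 width of the distal regions minus that of gene-end regions was -0.76 and -0.73 in the knockout and -1.04 and -0.93 in its wild types. It was -0.78 and -0.80 in the C313Y heterozygotes and -0.82 and -0.83 in their wild types, and -0.63 and -0.58 in the C442G heterozygotes and -0.68 and -0.70 in theirs. Mutants were above wild types with no overlap in each contrast, by 0.24, 0.03 and 0.08. The 6 wild-type libraries alone ran from -1.04 to -0.68, so the pairs differed among themselves as well. In the lists of the 2 wild types of the knockout 46.8% and 39.8% of the regions had a -log10 q under 3, and in the other 6 lists that give it between 0.387% and 9.61% did.

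**Figure D4:**
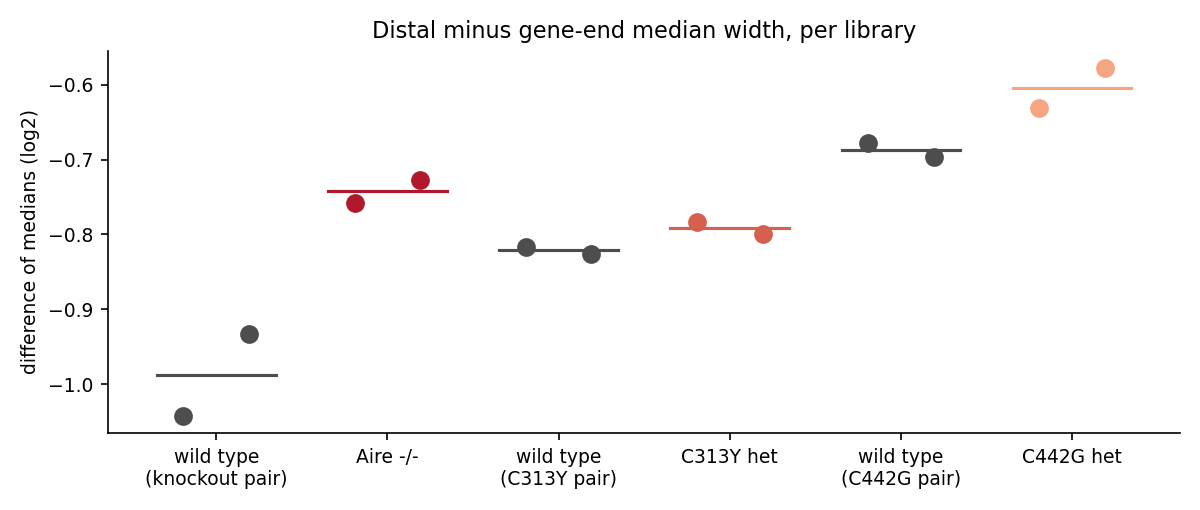
Median log2 width of shared distal regions minus that of gene-end regions (y axis), 1 point per library with a bar at the group mean (x axis: 6 groups of 2). The points run from -1.04 in a wild type of the knockout to -0.58 in a C442G heterozygote, and the mutants lie above the wild types in each of the 3 pairs.

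Region by region, both Aire -/- libraries were wider than both wild types at 3644 regions (64.1%), where 60.3% of all 18255 regions open in every library were, and narrower at 87 (1.93% of all). In C313Y 1649 were wider in both heterozygotes (29.0%, against 30.1% of all) and 465 narrower (7.11% of all). In C442G 1567 were wider (27.6%, against 23% of all and 18.9% of gene-end regions) and 569 narrower (12.5% of all). The C313Y share was thus near the background. In all 3 contrasts 335 regions were wider in both mutants (5.89%, against 4.69% of all). Across the regions, widths in 2 libraries of a group had Spearman correlations of 0.546 to 0.845 (n = 5684, as a description), and those in libraries of different contrasts 0.502 to 0.780.

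To test single regions, each library's log2 widths were centred on its median over all 18255 regions and compared with limma, with Benjamini-Hochberg adjustment over all of them. The centring took out a shift of 0.60 (log2) in the knockout, 0.20 in C313Y and 0.05 in C442G, so changes below are relative to it. In the knockout 29 shared distal regions passed at an adjusted p of 0.05, out of 67 of all regions (0.367%). They were 22 wider (0.301% of all regions were called wider) and 7 narrower (0.0657% were called narrower). Without centring the split was 514 wider and 5 narrower, out of 1315 wider and 9 narrower over all 18255 regions. With all 6 wild types as controls 0 wider and 1 narrower region were called. None was called with the 4 libraries of the contrast alone, without knockout replicate 1 or without knockout replicate 2, while without wild type 1 or 2 of the knockout there were 46 and 89 wider and 32 and 35 narrower. In fits with 1 library left in a group, that library is assumed to vary like the other groups.

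At the 22 wider regions the wild types of the knockout covered 66 to 300 bp and the knockout 285 to 1303 bp. The one with the lowest adjusted p lay inside Rhobtb1 (chr10:69185471-69186537), which encodes an atypical GTPase. It covered 874 and 876 bp in the knockout, 127 and 129 bp in its wild types and 559 to 1005 bp in the other 8 libraries, a centred change of 2.17 ± 0.19 (SE, limma adjusted p = 0.00763). The next were near Lingo2 (409 and 546 bp against 66 and 85 bp), near Tlk1 (539 and 487 bp against 93 and 90 bp), inside Rab11fip3 (494 and 508 bp against 102 and 117 bp) and near Ninj1 (433 and 440 bp against 90 and 103 bp), each at an adjusted p of 0.0232 by limma. At Rab11fip3 and Ninj1 the wild types of the other 2 pairs covered 474 to 548 bp and 395 to 462 bp, which is the level of the knockout. At 21 of the 22 wider regions both wild types of the knockout were below all 4 other wild types in raw width, and at 4 both knockout libraries were above them. The regions were called on these same widths. Over all shared distal regions, too, the wild types of the knockout had lower medians (152 and 164 bp) than the other wild types (197 to 321 bp). The share of all regions with such an order was not counted. One of the 22 lay inside Stat3 and one 42.2 kb from Irf1. Both genes are on the interferon list, which had 2 of its 9 regions called wider, where 0.387% of all shared distal regions were. The Irf1 region covered 861 and 1201 bp in the knockout, 238 and 300 bp in its wild types and 715 to 1532 bp in the other libraries. Stat3 encodes a factor below cytokine receptors, and its region covered 538 and 1021 bp against 102 and 116 bp, with 520 to 990 bp in the other libraries.

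At 6 of the 7 narrower regions both knockout libraries were below the 4 other wild types in raw width, and at 1 both wild types of the knockout were above them. The 6 include the regions near Ece1 and over Rn18s-rs5 described below. The 7 regions were called on these same widths, and the share of all regions with such an order was not counted. The first lay near Ece1 (chr4:137844654-137844931), the gene of endothelin-converting enzyme, at 93 and 87 bp in the knockout, 254 and 223 bp in its wild types and 87 to 122 bp elsewhere, a change of -2.01 ± 0.17 (SE, limma adjusted p = 0.00763). There the wild types of the knockout stood apart, and the knockout lay within the range of the other 8 libraries. Next came the region of chr9:3031717-3032953, in the cluster far from Alkbh8 (350 and 357 bp against 712 and 704 bp, with 703 to 1237 bp elsewhere), and one near Csf2ra (chr19:61266531-61267164, 357 and 339 bp against 579 and 598 bp, with 605 to 634 bp elsewhere). A region near Ly6c2 covered 1059 and 1230 bp against 1530 and 1528 bp. At chr17:39843023-39848803, over the ribosomal RNA-like Rn18s-rs5, raw widths were 5006 and 5011 bp against 4953 and 5004 bp, so this call of -0.59 came from the centring alone. The 4 other wild types covered 5761 to 5781 bp there. Ribosomal and other repeated copies draw reads from many places, and their widths are uncertain.

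**Figure D5:**
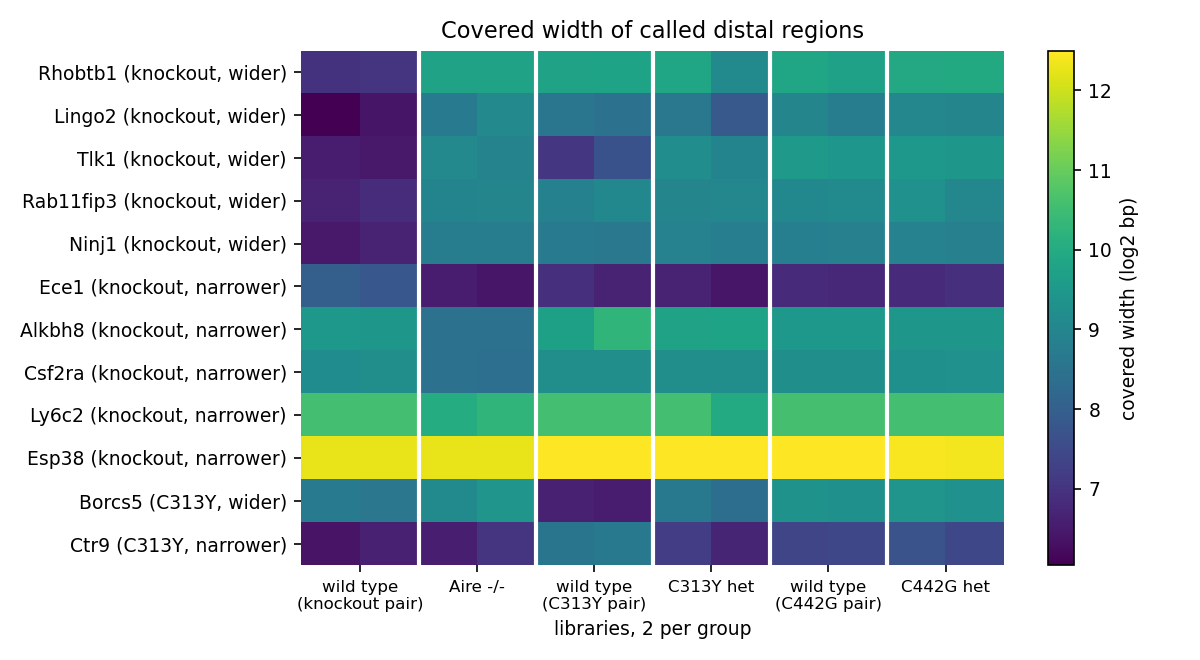
Covered width (colour, log2 bp) in the 12 libraries (columns, 2 per group) for the 5 wider and 5 narrower regions with the lowest adjusted p in the knockout and the 2 called in C313Y (rows, by nearest gene). In the wider rows called in the knockout its 2 wild types are dark (66 to 129 bp) and most others light. In the narrower rows called in the knockout, other than Esp38 (the nearest gene to Rn18s-rs5), the knockout columns are darker than those of its wild types.

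In C313Y 2 shared distal regions were called, out of 5 of all regions (0.0274%), with 0.011% of all called wider and 0.0164% narrower. The wider one lay inside Borcs5 (chr6:134694523-134695254), the gene of a lysosome-positioning subunit, at 402 and 334 bp against 100 and 92 bp, a change of 1.73 ± 0.19 (SE, limma adjusted p = 0.0366). The narrower one lay near Ctr9 (chr7:111014826-111015458), the gene of a PAF complex subunit, at 148 and 105 bp against 377 and 401 bp, a change of -1.84 ± 0.20 (SE, limma adjusted p = 0.0366). At both, the C313Y wild types stood apart from the rest, as the 4 other wild types covered 390 to 658 bp at Borcs5 and 83 to 173 bp at Ctr9. Neither call was left without either heterozygote or without wild type 1. In C442G limma called 0 of the 18255 regions (0%), with a lowest adjusted p of 0.0802 among the shared distal regions, and 151 of these were wider and 78 narrower at an unadjusted p under 0.05. That is 4.03% of them, against 3.81% of all regions and the 5% that chance alone gives. The widest single peak in place of the covered width gave 3 wider calls there, out of 3 over all regions.

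The contrasts were also set against each other in the same limma fit. The knockout change differed from the C313Y change at 2 shared distal regions, out of 4 of all regions (0.0219%), 1 with a higher value in the knockout (0.0164% of all) and 1 with a lower value (0.00548% of all). These were the regions inside Rhobtb1, with changes of 2.17 and -0.49, and inside Calr4, with -1.66 and 1.66. No region passed for the knockout against C442G or for C313Y against C442G, where 481 and 299 shared distal regions had an unadjusted p under 0.05 (8.46% and 5.26%, against 9.32% and 4.67% of all regions).

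The other gene lists, the regions at starts and those in clusters of at least 3 gave no more than these calls. Of the regions at a protein-coding start none was called, of those at a non-coding start 1 was called wider in the knockout, and of the 286 in clusters of at least 3 1 was called narrower in the knockout. Median centred changes in the knockout were -0.03 for all shared distal regions, -0.13 for all shared regions and -0.22 for gene-end regions. They were -0.07, -0.08 and -0.09 in C313Y and 0.02, -0.01 and -0.03 in C442G. The standard error of a single region's change had a median of 0.34, so changes of a size near 1 were seldom detectable with 2 libraries a group.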

How the data were processed

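The labels describe 12 ATAC-seq libraries of nucleosome-free chromatin, and cutadapt, Bowtie2, Picard and MACS2 are named, with the build mm10 and no versions, per the submitters' processing notes. Peaks were deposited per library. For 8 libraries the authors' lists give, per the file headers and values, a fold over background (a ratio), −log10 p, −log10 q and a score for each peak, and the 4 lists of the C313Y contrast hold positions only. A fold ranks peaks within its own list. How reads were shifted, filtered or compared with a control is not given in the sources used here. With no read counts, depth is unknown, and absence means not called.

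Peaks overlapping by at least 1 bp were merged over all libraries (Python 3.11.15), and genes were the 21631 protein-coding genes of RefSeq GRCm38.p6, which shares coordinates with mm10. A region's nearest gene is the gene it lies in, or otherwise the gene of the nearest end. Widths were tested with limma 3.58.1 (R 4.3.3; trend and robust, 6 groups, 12 libraries). In simulated data made for each contrast on 18255 regions, it recovered 9% to 17% of planted changes of 1 (log2) and 46% to 51% of changes of 2, with 4.29% to 8.06% false calls. The members, lists and named regions were chosen with earlier results of these data known, so the permutation p of the median width shift, a score over the members, is not given, nor is a p adjusted over a list. Named are the 10 widest regions, the 10 clusters with most regions, 5 called regions per contrast and direction, 5 regions on each side of the 10 kb limit, the 10 genes nearest to most regions, up to 4 genes per list, and Aire. Other names were chosen after their values were seen, and some genes that the rule selected are left out. The table of start windows used here holds none for chromosome 18. Distal regions themselves were not searched for motifs, since no genome sequence was used here. Alternatives were other distances, equal list lengths, a −log10 q minimum of 3, other scalings, controls and width measures, each library left out and a replicate block.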

Additional observations from a re-analysis of the deposited data

Results flagged for a closer look

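The knockout and C313Y changes differed from each other, by a test of the difference in the limma fit over all 18255 regions, at 2 shared distal regions, out of 4 of all regions (0.0219%). At Rhobtb1 the difference was 2.66 ± 0.27 (SE, log2 width, limma adjusted p = 0.0253), with a change of 2.17 in the knockout and -0.49 in C313Y. The region covered 874 and 876 bp in the knockout, 127 and 129 bp in its wild types, and 923, 559, 873 and 878 bp in the C313Y heterozygotes and their wild types.

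At the region inside Calr4, chr4:109238489-109239246, the difference was -3.32 ± 0.36 (SE, limma adjusted p = 0.0379), with a change of -1.66 in the knockout and 1.66 in C313Y. It covered 238 and 269 bp in the knockout, 498 and 554 bp in its wild types, 552 and 656 bp in the C313Y heterozygotes, 201 and 136 bp in theirs and 717 to 746 bp in the C442G pair. The C313Y wild types and the knockout were the narrow ones.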

How the results depend on the processing

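The count of shared distal regions fell from 5684 to 2274 with a −log10 q of at least 3 and to 2298 with lists of equal length, and rose to 11007 without both wild types of the knockout (chosen after seeing the data). The q minimum acted only on the 8 lists that give q, and the 4 lists of the C313Y contrast were left whole. For equal length those 4 lists were cut by peak width and the others by −log10 p. Leaving out 1 library gave 5679 to 7489. Clusters of at least 3 went from 87 to 9, 12 and 344 under the same 3 settings, and the share in clusters from 20.3% to 9.98%, 10.97% and 31.8%. With joining at 5, 25 and 50 kb there were 18, 154 and 309 clusters, with shares of 7.16%, 28.4% and 42.4%. Leaving out 1 library gave 86 to 158 clusters, the highest without wild type 1 of the knockout and 131 without its wild type 2, and shares of 20.3% to 24.2%. The gene lists had 65 regions in place of 142 with lists of equal length.

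Wider and narrower calls in the knockout (22 and 7) were 514 and 5 with no centring, 0 and 1 with all 6 wild types as controls, and 0 and 0 with the 4 libraries alone. With no centring 1315 and 9 of all shared regions were called. Quantile normalization gave 3 narrower, out of 6 over all shared regions. Leaving out 1 library gave 0 to 89 wider and 0 to 35 narrower. In C313Y (1 and 1), no centring and the 4 libraries alone gave 0 and 0, and all 6 wild types 0 narrower. The widest single peak gave 2 and 5 in C313Y, out of 5 and 11 over all shared regions. Leaving out 1 library gave 0 to 8 in each direction, and the 8 came without wild type 2. In C442G (0 and 0), all 6 wild types gave 2 and 3, out of 3 and 3 over all shared regions. The widest single peak gave 3 wider in C442G, out of 3. The cause was not tested. With a replicate block the knockout calls were 0 and 0. Deviations of same-numbered libraries had correlations of -0.004 in the knockout and -0.008 in C442G. These values do not show whether same-numbered libraries were handled together. C313Y shares 1 number only, so no block was possible there. The share inside genes was 48.0% to 50.0045% under all alternatives run. The median width shift kept its direction under those run for it, ranging from 0.13 to 0.30 in the knockout, 0.01 to 0.04 in C313Y and 0.05 to 0.11 in C442G.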

Other observations

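A few shared distal regions had nearly the same width in every library, although the medians of the libraries ran from 152 to 346 bp. The ratio of the widest to the narrowest library had a median of 3.32 over the 5684 regions, and it was under 1.1 at 15 of them, a limit chosen after the values were seen. A region inside Chl1 (chr6:103649065-103649297) covered 227 to 231 bp, one near Dpy19l2 (chr9:24542015-24542169) 149 to 155 bp, and one near Ankle1 (chr8:71433088-71433171) 79 to 84 bp. By the authors' fold these 3 were among the 10 strongest of the regions in all 8 lists that give a fold, with values of 33.9 to 39.7, 31.8 to 41.6 and 28.4 to 37.0. In all 8 lists 6 regions held such a place. The highest fold in any list had a median of 20.2 over the 15 steady regions and of 9.30 over all of them.

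Another 3 of the 15 lay together more than 1030 kb from Lrrc4c, the nearest protein-coding gene. The widest of them, chr2:98666238-98667330, covered 1075 to 1092 bp, and its fold was 5.94 to 7.32. The regions are mentioned because a width that does not move with the library sets them apart from the rest, and no explanation was tested.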
